A study of Mus musculus with 21 samples.

Results

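The 3 genes of the fibrinogen chains (Fga, Fgb and Fgg) and the fibrinogen-like genes Fgl1 and Fgl2 were followed through the conversion of mouse hepatocytes into proliferating progenitor-like cells and back towards hepatocytes. These 5 genes were taken by their names on the array, from 37074 gene names in all, and were measured by 7 probes of 56605. RNA came from female C57BL/6 mice and was hybridised to 21 Agilent 1-colour arrays, 3 for each of 7 groups. The first group was freshly isolated hepatocytes. The other 6 were CLiPs, chemically induced liver progenitors, which are hepatocyte-derived cells grown in culture. At passage 1 (P1) the CLiPs were profiled at day 0 of hepatic induction, after 8 days without the inducers (uninduced) and after 8 days with oncostatin M and dexamethasone (induced). The same 3 states were profiled in late CLiPs, which were at passage 12 for replicates 1 and 2 and at passage 11 for replicate 3. Neither the mouse nor the culture behind each replicate is given in the labels, so a p-value here speaks only of the spread among the arrays, which may be technical. A passage of P1 is attached to fresh replicate 3 in its labels, although its title says fresh hepatocytes, and it was kept in the fresh group.

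Fibrinogen is a plasma protein made almost wholly by hepatocytes. An alpha, a beta and a gamma chain, the products of Fga, Fgb and Fgg, are assembled in pairs, and thrombin cuts the alpha and beta chains so that fibrin forms and a clot sets. The 3 genes lie side by side and belong to the class 2 acute-phase genes, which interleukin-6-type cytokines such as oncostatin M raise through STAT3, with glucocorticoids adding to the response. Fgl1 codes for a hepatocyte-secreted protein with a fibrinogen-related domain that is known as a ligand of the immune receptor LAG-3. Fgl2 codes for a membrane-bound prothrombinase of macrophages and endothelial cells, and for a secreted form made by regulatory T cells.

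The probe sequences are shown for Fga and Fgb because the results on unequal change rest on them. On mm9, the build of the array design, the first Fga probe lay at chr3:82835678-82835737 and the second at chr3:82837260-82837319, both on the plus strand. The Fgb probe lay at chr3:82846334-82846393 on the minus strand. All 3 are in lower case, since no base in them is singled out.
Fga first probe: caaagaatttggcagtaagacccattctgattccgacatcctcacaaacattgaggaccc
Fga second probe: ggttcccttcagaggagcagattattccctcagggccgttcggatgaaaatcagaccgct
Fgb probe: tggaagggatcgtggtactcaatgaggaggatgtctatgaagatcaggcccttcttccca
The design assigned the first Fga probe to 2 Ensembl transcripts and the second to 1, and each to 2 RefSeq transcripts. Fga is known to be spliced into a common short form and a rarer long form with a fibrinogen-related domain at its end, and which form each probe detected was not determined here. The Fgg probe was at chr3:82818825-82818884 (plus strand), the Fgl2 probe at chr5:20883482-20883541 (plus strand). The 2 Fgl1 probes were on the minus strand of chromosome 8, one (42276846 to 42276905) assigned to a RefSeq transcript and the other (42283445 to 42283504) to 1 Ensembl transcript only.

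The 250 bases before the start of each chain gene are shown because the 3 genes moved together under the inducers. They come from RefSeq on GRCm38.p6, which gave a promoter for 4 of the 5 genes. Fga is at chr3:83025903-83026152 (plus strand), Fgb at chr3:83049864-83050113 (minus strand) and Fgg at chr3:83007474-83007723 (plus strand). Capitals mark matches, searched on both strands, to TTCNNNGAA (the STAT site), CTGGGAA (the interleukin-6 response core) and TTGCNNAA (the C/EBP site).
Fga promoter: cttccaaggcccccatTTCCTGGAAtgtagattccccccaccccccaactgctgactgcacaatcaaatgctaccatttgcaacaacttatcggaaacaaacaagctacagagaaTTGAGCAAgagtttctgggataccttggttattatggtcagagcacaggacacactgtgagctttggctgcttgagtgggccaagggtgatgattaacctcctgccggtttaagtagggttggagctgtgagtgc
Fgb promoter: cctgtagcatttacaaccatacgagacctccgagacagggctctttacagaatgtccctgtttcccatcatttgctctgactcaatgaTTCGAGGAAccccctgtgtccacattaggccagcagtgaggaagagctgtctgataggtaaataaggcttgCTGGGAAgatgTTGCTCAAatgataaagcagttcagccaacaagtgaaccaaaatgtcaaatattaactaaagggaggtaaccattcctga
Fgg promoter: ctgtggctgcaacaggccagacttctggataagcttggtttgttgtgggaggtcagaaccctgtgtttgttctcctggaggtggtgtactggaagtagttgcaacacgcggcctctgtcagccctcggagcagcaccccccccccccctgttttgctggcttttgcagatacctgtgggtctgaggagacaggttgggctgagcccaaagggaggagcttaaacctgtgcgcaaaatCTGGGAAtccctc
The Fga window held the STAT letters, 225 bases before its end, and the C/EBP letters on the minus strand, 127 bases before its end. Fgb held all 3, at 153, 84 and 72 bases before the end of its window. In Fgg the response core stood 6 bases before the end. A single stretch of the Fgl2 window, 27 bases before its end, matched both the STAT letters and the response core, which overlap there. Of 32851 RefSeq windows of this length, 7.02% held the STAT letters, 9.1% the response core and 9.56% the C/EBP letters. The glucocorticoid receptor motif, in 0.387% of windows, was in none of these 4. A match is a run of letters and not evidence of binding.

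A level below is the log2 processed signal of a probe minus the 75th percentile of its array, so 0 is the 75th percentile and a step of 1 is 2-fold. Levels are compared between groups within a gene, never between genes. A gene was tested where its probe was well above background on all arrays of at least 1 group of the fit, and 4 of the 5 genes were; Fgl2 was not. A change was called, and is said to have risen or fallen, at a Benjamini-Hochberg adjusted p under 0.05 from limma and at least 2-fold. Whether the arrays of compared groups overlapped is given as a description only. Its share over all genes is not given, and it adds no support to a change that was not called. The 75th percentile of the signal ranged from 291 to 332 across the fresh hepatocyte arrays, from 466 to 789 at P1, and from 881 to 1241 in late cells. No spot was saturated. Fresh and P1 arrays were read on one scanner and late arrays on another with another software version, so for a level set across them the array set and the passage cannot be told apart. No slide held both fresh and P1 arrays, so for fresh against P1 the slide and the cell state cannot be told apart. All 8 hepatocyte markers were well above background on every fresh array. At late day 0, none of the 3 arrays had Apoc3, Cps1 or Cyp2e1 well above background.

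**Figure D1:**
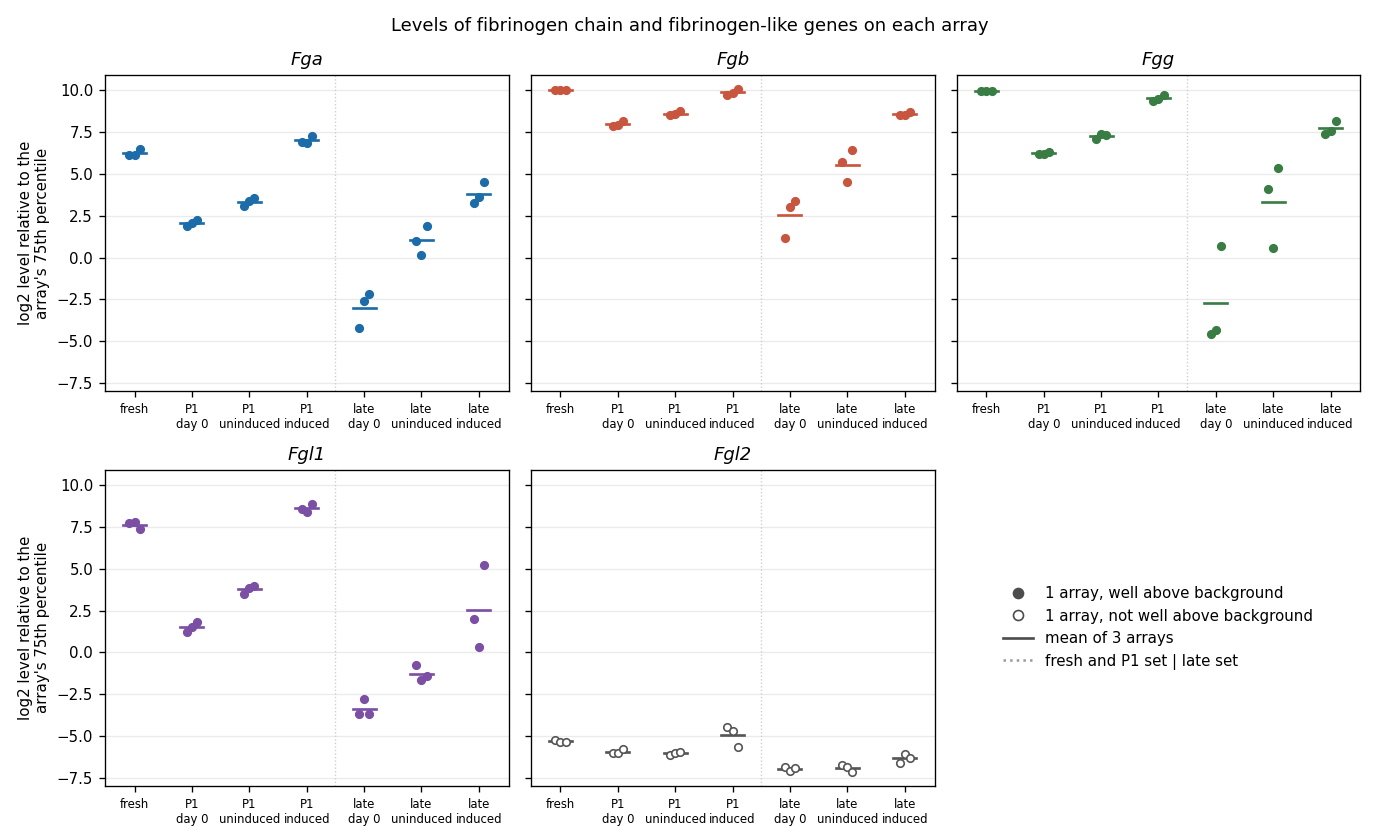
Log2 level of each gene relative to the array's 75th percentile (y axis) on each of the 21 arrays, by group (x axis); filled points are well above background, open points are not, and bars are means of 3 arrays. Fga, Fgb, Fgg and Fgl1 were lower at day 0 than in fresh hepatocytes and lowest at late day 0, while every Fgl2 point, from -7.14 to -4.45, is open.

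The first comparison asked how far the fibrinogen genes were lost when hepatocytes became P1 CLiPs. All 4 tested genes fell, Fgl1 the furthest by its RefSeq-assigned probe and Fgb the least. Of all 20619 genes tested, 25.2% were called lower and 25.4% higher. Fga read 6.11, 6.11 and 6.48 on the fresh arrays and 1.91, 2.07 and 2.23 at P1 day 0. It was 17.9-fold lower (log2 change -4.16, SE 0.17, adjusted p = 2.28e-09). Fgb stood at 10.03, 10.03 and 10.02 in fresh cells and at 7.89, 7.93 and 8.17 at day 0, and the change was -2.03 (SE 0.12, adjusted p = 3.97e-08, 4.08-fold lower). Fgg went from 9.93, 9.97 and 9.93 to 6.20, 6.19 and 6.30, a change of -3.71 (SE 0.11, adjusted p = 3.18e-10). For Fgl1 the fresh arrays gave 7.72, 7.80 and 7.35 and the day-0 arrays 1.21, 1.54 and 1.81, a 68.9-fold difference (log2 change -6.11, SE 0.20, adjusted p = 5.40e-10). Fresh and day-0 arrays did not overlap for any of the 4. With quantile normalization Fgb changed by -0.87, under 2-fold, and was not called.

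In the same comparison all 8 hepatocyte markers fell, with a median change of -9.80, and their summed level was 3673 to 4312 times the 75th percentile on fresh arrays and 358 to 508 times at P1 day 0. In these bulk RNA samples fewer cells of a type and less RNA per cell cannot be told apart. Of 9 Kupffer cell and macrophage markers tested, of 10 on the list, 7 fell, and their summed level went from between 16.1 and 38.0 to between 9.36 and 9.74. Of 7 endothelial markers tested, of 9, 5 fell, and all 7 biliary and progenitor markers rose. The part of these cells in the fibrinogen values was not tested.

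The second comparison asked what 8 days of culture without the inducers did at P1. Fga, Fgg and Fgl1 rose and Fgb was not called, against 6.28% of all genes called higher and 4.86% lower. Fga reached 3.11, 3.36 and 3.56, a rise of 1.27 (SE 0.17, adjusted p = 2.49e-04). Fgg reached 7.08, 7.38 and 7.31, a rise of 1.02 (SE 0.11, adjusted p = 9.12e-05) that lay at the 2-fold line. It fell short of that line, at 0.96, without P1 uninduced replicate 2, at 0.998 without replicate 3 and at 0.87 with median scaling, and in 1 fit of all 21 arrays it was not called (adjusted p = 0.521). Fgl1, at 3.48, 3.86 and 3.99, rose by 2.26 (SE 0.20, adjusted p = 2.42e-05). Fgb gave 8.50, 8.57 and 8.74, a change of 0.61 (SE 0.12, adjusted p = 2.48e-03), which was 1.52-fold. For none of the 4 did the uninduced and day-0 arrays overlap. With the mean of a gene's probes, Fga (0.52) and Fgl1 (0.86) were not called. The pair of slides that held these arrays gave 1.24 and 1.33 for Fga and 0.62 and 0.57 for Fgb. Fgg gave 1.03 and 1.01, and Fgl1 2.30 and 2.18. The first value of each pair is from 2 arrays against 2, the second from 1 against 1.

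Hepatic induction at P1 asked what oncostatin M and dexamethasone added over the same 8 days. All 4 tested genes rose, Fgl1 the most by its RefSeq-assigned probe and Fgb the least. Of all genes, 9.69% were called higher and 9.02% lower. Fga stood at 6.89, 6.85 and 7.29 on the induced arrays, 12.7-fold above the uninduced ones (log2 change 3.67, SE 0.17, adjusted p = 8.92e-08). Fgb, at 9.74, 9.81 and 10.06, rose by 1.27 (SE 0.12, adjusted p = 9.56e-06). Fgg, at 9.34, 9.48 and 9.72, rose by 2.26 (SE 0.11, adjusted p = 1.70e-07). Induced arrays lay above all uninduced arrays for each chain. Fgl1 gave 8.55, 8.40 and 8.88 and was 28.5-fold higher (log2 change 4.83, SE 0.20, adjusted p = 4.98e-08), with no overlap either. The size of its change ranked 124 from the top among all genes, that of Fga 260. Fgb moved by 0.50, under 2-fold, with quantile normalization, and Fgg was not called in 1 fit of all 21 arrays (adjusted p = 0.114). Within the pair of slides that held these arrays, the changes were 3.65 and 3.51 for Fga and 1.21 and 1.19 for Fgb. Fgg gave 2.11 and 2.29, and Fgl1 4.89 and 4.64. The first value of each pair is from 1 induced array against 2 uninduced, the second from 2 against 1.

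**Figure D2:**
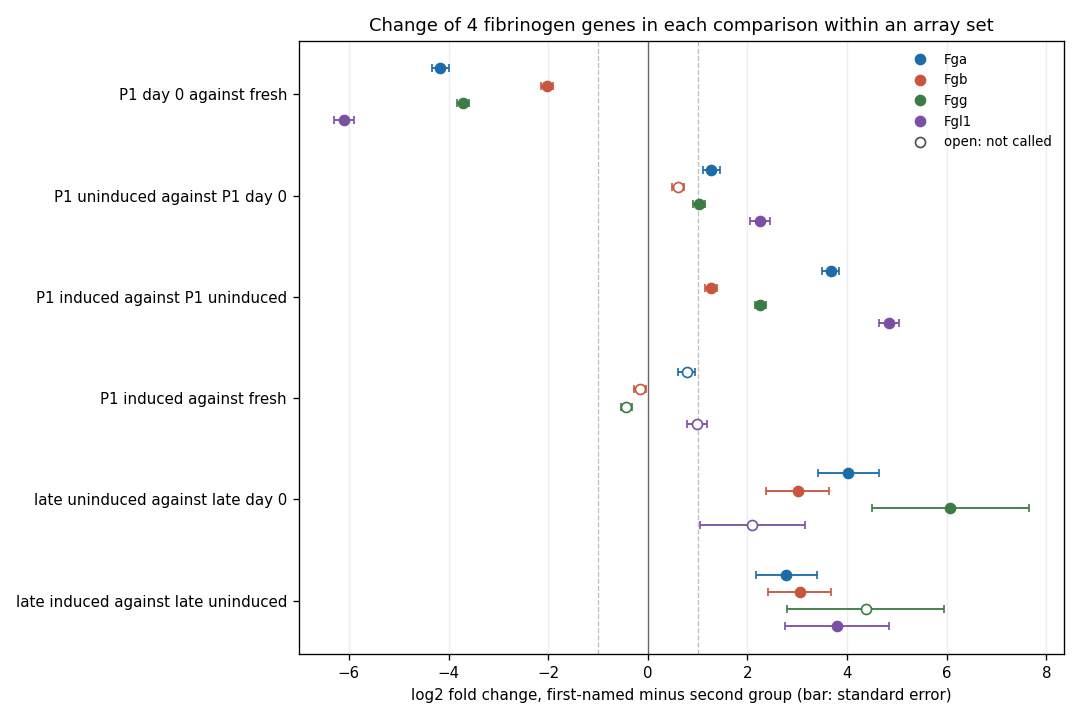
Log2 fold change (x axis) of Fga, Fgb, Fgg and Fgl1 in the 6 comparisons made within an array set (y axis); bars are standard errors, filled points are called, and dashed lines mark 2-fold. The changes on passing from fresh cells to P1 day 0 lie between -6.11 and -2.03, those of P1 induction between 1.27 and 4.83, and the late changes have wider bars.

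Set against fresh hepatocytes, induced P1 CLiPs had none of the 4 genes called in either direction, where 20.3% of all genes were called higher and 18.8% lower. The change was 0.78 for Fga (SE 0.17, adjusted p = 1.67e-03), -0.16 for Fgb (SE 0.12, adjusted p = 0.249), -0.43 for Fgg (SE 0.11, adjusted p = 6.13e-03) and 0.99 for Fgl1 (SE 0.20, adjusted p = 1.21e-03). Induced and fresh arrays overlapped for Fgb and not for the other 3. Fga, Fgg and Fgl1 had an adjusted p under 0.05 and were not called because their changes were under 2-fold. Fgl1 stood just inside the 2-fold line, at 1.98-fold. It was called higher, by between 1.01 and 1.09, without fresh replicate 1 or 2 or P1 induced replicate 1 or 2, and at 1.15 with normexp background correction. With quantile normalization Fga (1.16) and Fgl1 (1.27) were called higher and the signs of Fgb (0.43) and Fgg (0.28) turned. All 8 hepatocyte markers remained below fresh in this comparison, with a median of -3.96 and Alb, the albumin gene, at -1.13. Their summed level was 599 to 761 on the induced arrays.

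At late day 0 Fga read -4.20, -2.60 and -2.18, Fgb 1.15, 3.05 and 3.38, Fgg -4.57, -4.32 and 0.68, and Fgl1 -3.66, -2.80 and -3.66. Fgg on replicates 1 and 2, and Fga on replicate 1, were close to the lowest level of any probe well above background on those arrays, -4.72 and -4.94. Replicate 3, the passage 11 sample, was the highest of the late day-0 arrays for all 3 chains and 1 of the lower pair for Fgl1.

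After 8 days without inducers the 3 chains rose in late CLiPs and Fgl1 was not called, where 8.19% of the 21313 genes tested were called higher and 6.36% lower. Fga reached 0.999, 0.18 and 1.89, 16.2-fold above day 0 (log2 change 4.02, SE 0.61, adjusted p = 1.16e-03). Fgb reached 5.69, 4.51 and 6.40, a rise of 3.01 (SE 0.63, adjusted p = 5.35e-03). The late uninduced and day-0 arrays did not overlap for either gene. Fgg reached 4.11, 0.57 and 5.34, a rise of 6.07 (SE 1.58, adjusted p = 1.46e-02) in which uninduced replicate 2 lay just under day-0 replicate 3. That call was lost without late day-0 replicate 1 (5.16, adjusted p = 5.35e-02) or 2 (5.28, adjusted p = 5.35e-02) and without late uninduced replicate 3 (5.07, adjusted p = 5.23e-02). Fgl1, at -0.77, -1.64 and -1.41, changed by 2.10 (SE 1.05, adjusted p = 0.143) without overlap. It was called with the slide as a block (adjusted p = 9.08e-03). All late day-0 and uninduced arrays lay on the same slide, and only late induced replicate 3 lay on another. The block therefore left the change at 2.10 and only took that induced array out of the spread.

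Induction raised Fga, Fgb and Fgl1 in late CLiPs, while Fgg was not called; 2.94% of all genes were called higher and 3.06% lower. Fgb came to 8.49, 8.54 and 8.71, 3 closely spaced arrays, and rose by 3.05 (SE 0.63, adjusted p = 1.36e-02, 8.26-fold). Fga came to 3.27, 3.64 and 4.49 and rose by 2.78 (SE 0.61, adjusted p = 1.80e-02). Its call was lost without late uninduced replicate 1 (2.76, adjusted p = 5.26e-02) or 2 (2.35, adjusted p = 5.89e-02). Fgl1 came to 1.99, 0.33 and 5.23, from 1 array far above the others, and the change was 3.79 (SE 1.05, adjusted p = 4.09e-02). Without late uninduced replicate 1, 2 or 3, or late induced replicate 1, it was not called (adjusted p from 7.77e-02 to 0.11). The high array, replicate 3, was at passage 11 and was the only late array on its slide, and without it the Fgl1 change was 2.44. With no filter on dim probes Fgl1 was not called (adjusted p = 8.63e-02). Fgg came to 7.39, 7.57 and 8.17 and changed by 4.37 (SE 1.58, adjusted p = 9.35e-02). With the replicate number as a block, which the late samples bear out, Fgg was called (adjusted p = 3.61e-02), as it was with normexp (4.24e-02) and in the fit of all 21 arrays (1.18e-02). Late induced and uninduced arrays did not overlap for any of the 4 genes. The summed hepatocyte marker level was 9.24 to 31.4 at late day 0, 123 to 178 uninduced and 165 to 381 induced, and its part in these changes was not tested.

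Whether a change differed between late and P1 CLiPs was tested in a fit of all 21 arrays. For the effect of induction none of the 4 genes was called, against 4.73% of 22353 genes called higher and 5.21% lower. The late minus P1 difference was -0.89 for Fga (SE 0.64, adjusted p = 0.391), 1.78 for Fgb (SE 0.64, adjusted p = 6.34e-02), 2.12 for Fgg (SE 1.58, adjusted p = 0.412) and -1.04 for Fgl1 (SE 1.07, adjusted p = 0.581). Fgb was called with the replicate block (adjusted p = 4.70e-02), with quantile normalization (2.58), with normexp (1.85) and without late uninduced replicate 3 (2.21). Fgl1 was called lower with the slide as a block (-2.30) and without late induced replicate 3 (-2.40), and its difference was 0.05 without late induced replicate 2. For the 8-day change without inducers, Fga and Fgb were called larger in late CLiPs, by 2.75 (SE 0.64, adjusted p = 2.18e-02) and 2.40 (SE 0.64, adjusted p = 4.52e-02), where 1.74% of genes were called higher and 1.11% lower. Fgg differed by 5.05 (SE 1.58, adjusted p = 9.71e-02) and Fgl1 by -0.16 (SE 1.07, adjusted p = 0.972). Fgg was called without late day-0 replicate 3 (6.76) or late uninduced replicate 2 (6.44). The Fgb call was lost in 9 of 12 fits that each left out 1 array, with the slide as a block and with no filter on dim probes. That of Fga was lost without P1 day-0 replicate 3, P1 uninduced replicate 1 or late uninduced replicate 3, at adjusted p of 5.46e-02, 5.97e-02 and 5.86e-02.

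At day 0 all 4 genes were lower in late than in P1 CLiPs, with differences of -5.07 for Fga, -5.47 for Fgb, -8.97 for Fgg and -4.89 for Fgl1 (adjusted p from 1.94e-07 to 1.17e-04), where 9.11% of genes were called lower and 4.33% higher. The Fgg difference ranked 6 from the bottom among all genes. It rests in part on late day-0 replicates 1 and 2, where Fgg was near the lowest level well above background. After induction late CLiPs were lower in Fga (-3.21), Fgl1 (-6.09, 68.1-fold) and Fgb (-1.29, adjusted p = 2.35e-02). Of all genes, 2913 of 22353 (13%) were called lower here and 8.90% higher. The Fgb call was lost with quantile normalization (-0.46), median scaling (-1.04), the slide as a block (-1.24) and without P1 induced replicate 3 or late induced replicate 1 or 2. Fgg, at -1.80 (SE 1.12, adjusted p = 0.185), was not called, although late and P1 induced arrays did not overlap. Against fresh hepatocytes, late induced cells had lower Fga (-2.43), Fgb (-1.44, adjusted p = 7.92e-03) and Fgl1 (-5.10), with 26.6% of genes called lower and 24.7% higher, and Fgg stood at -2.23 (adjusted p = 7.83e-02). The Fgb difference from fresh was -0.03 with quantile normalization and -1.43 (adjusted p = 6.38e-02) with the slide as a block, and Fgg was called with normexp (-2.08). For all differences of this kind the array set and the passage cannot be told apart.

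The 7 groups can be put in order within each gene. Fga was highest in P1 induced cells (mean 7.01, SD 0.24, n = 3), then fresh hepatocytes (6.23, SD 0.21), late induced (3.80, SD 0.63), P1 uninduced, P1 day 0, late uninduced (1.02, SD 0.86) and late day 0 (-3.00, SD 1.07). Of these neighbours only late induced and P1 uninduced overlapped. Fgb ran from fresh (10.02) through P1 induced (9.87), P1 uninduced (8.60), late induced (8.58), P1 day 0 (8.00) and late uninduced (5.53) to late day 0 (2.52). Fresh and P1 induced overlapped, as did P1 uninduced and late induced. Fgg followed fresh (9.94), P1 induced (9.51), late induced (7.71), P1 uninduced (7.26), P1 day 0 (6.23), late uninduced (3.34) and late day 0 (-2.74), and only the last pair overlapped. Fgl1 went from P1 induced (8.61) and fresh (7.62) to P1 uninduced (3.78), late induced (2.52, SD 2.49), P1 day 0 (1.52), late uninduced (-1.28) and late day 0 (-3.37). Late induced overlapped both its neighbours in that order. Thus late induced cells held the third place for Fga and Fgg and the fourth for Fgb and Fgl1.

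The 3 chain genes did not change by equal amounts, which can be read on each array as the difference between 2 probes. From fresh cells to P1 day 0, Fga minus Fgb changed by -2.14 (SE 0.13) and Fgg minus Fgb by -1.68 (SE 0.06), with no overlap between the groups. The sizes for Fga rest on its first probe: the second Fga probe fell by 2.56, against 2.03 for Fgb and 3.71 for Fgg. P1 induction moved Fga minus Fgb by 2.40 (SE 0.09), Fgg minus Fgb by 0.99 (SE 0.08) and Fga minus Fgg by 1.41 (SE 0.10), again without overlap. Fgb had the smallest log2 change of the chains both in the fall and in the rise at P1. With quantile normalization its changes were -0.87 and 0.50. Fgb and Fgg were read by 1 probe each, with processed signals in fresh cells of 304087 to 346974 and 291223 to 325027. Whether high signal shrank the changes was not tested. Late induction gave 3.05 for Fgb, 2.78 for Fga and 4.37 for Fgg, the last not called. In induced P1 cells relative to fresh, Fga minus Fgb changed by 0.93 (SE 0.14) and Fgg minus Fgb by -0.27 (SE 0.02). In late CLiPs without inducers Fga minus Fgb changed by 1.01 (SE 0.14), without overlap. Late induction gave -0.27 for Fga minus Fgb (SE 0.32), with overlapping groups. It gave -1.60 for Fga minus Fgg (SE 0.98), without overlap and opposite in sign to P1. Late uninduced Fgg was 4.11, 0.57 and 5.34, so replicate 2 weighs heavily on that last value.

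The 2 probes of Fga moved in the same direction from fresh to P1 day 0, on P1 induction and in late CLiPs, but by unequal amounts. Their difference on an array changed by -1.60 (SE 0.38) from fresh to P1 day 0 and by 1.51 (SE 0.11) without inducers at P1, without overlap, and by -0.26 (SE 0.37), with overlap, from fresh to P1 induced. The second probe read 3.38, 4.60 and 4.72 in fresh cells, 1.71, 1.62 and 1.70 at P1 day 0, 1.25, 1.52 and 1.54 uninduced and 5.10, 5.22 and 5.50 induced. It fell by 2.56 from fresh to P1 day 0 and rose by 3.84 on P1 induction. The 8-day change without inducers was -0.24 and not called, against the rise of 1.27 in the first probe. In induced P1 cells it was called above fresh hepatocytes, by 1.04, and fresh replicate 1 was its low array. In late CLiPs it rose by 2.71 without inducers and changed by 1.94 on induction (adjusted p = 6.93e-02), which was not called.

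The 2 probes of Fgl1 both fell from fresh to P1 day 0 and differed on induction. The second probe read 4.29, 5.09 and 4.60 in fresh cells and between 1.01 and 2.98 on all 18 CLiP arrays. It fell by 1.84 from fresh to P1 day 0, changed by 0.28 on P1 induction where the first rose by 4.83, and changed by 0.17 on late induction. Without inducers it changed by -0.54 at P1 and -0.31 in late CLiPs, neither called, where the first gave 2.26 and 2.10. Against fresh hepatocytes induced P1 cells had it at -2.10, with the first probe at 0.99. The mean of both probes put Fgl1 at -0.56 in that comparison. The results on Fgl1 above hold for the first probe, the one assigned to a RefSeq transcript.

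**Figure D3:**
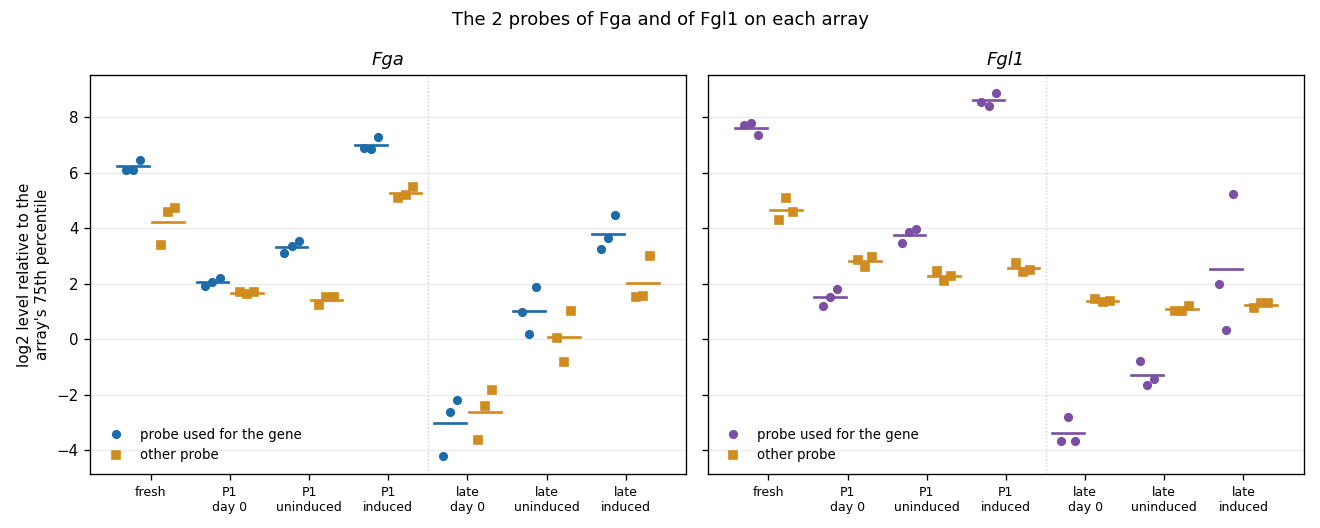
Log2 level relative to the array's 75th percentile (y axis) of the probe used for the gene (circles) and the other probe (squares) on every array, by group (x axis), for Fga and Fgl1; bars are means of 3 arrays. For Fga both probes rise on P1 induction, while for Fgl1 the other probe stays between 1.01 and 2.98 in CLiPs as the first moves from -3.66 to 8.88.

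Fgl2, the prothrombinase, was not well above background on any of the 21 arrays, with values from -7.14 to -4.45, so no change was computed for it. Fcgr2b, an Fc receptor that binds the secreted Fgl2 protein, was at least 19.9-fold lower at P1 day 0 than in fresh cells. Lag3, the receptor of the Fgl1 protein, was well above background on 2 of 3 fresh arrays, 1 late day-0 array and no other, and was not tested. Among 10 receptor genes, 8 were tested at P1. Icam1, an adhesion molecule that binds fibrinogen, rose by 3.95 from fresh to P1 day 0, Itgb3, a beta integrin well above background on 2 of 3 fresh arrays, by 2.43. On P1 induction 2 of the 8 were lower: Itgb3 was at least 5.01-fold lower and Itgav fell by 1.03.

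The pathway that carries the inducers was measured on 14 genes. On P1 induction 5 of the 14 rose, with a median change of 0.58 against 0.05 for all genes. Socs3, the feedback inhibitor that STAT3 switches on, rose by 3.73 (adjusted p = 7.29e-05), Fkbp5, a glucocorticoid target, by 2.21 (adjusted p = 3.44e-06), and Osmr, the oncostatin M receptor, by 1.66. Stat3 itself changed by 0.88 and Nr3c1, the glucocorticoid receptor gene, by 0.39, both under 2-fold. In late induction 4 of 14 rose, among them Socs3 by 2.93, Fkbp5 by 2.19 and Osmr by 1.04. Stat3 stood at 0.40 and Nr3c1 at 0.16. Across all tested probes of each gene, Stat3 ran from -0.30 to 0.40 and Nr3c1 from -0.04 to 0.16. From fresh to P1 day 0, Osmr rose by 4.88, the only one of the 14 to rise, and 6 fell, among them Il6ra (-3.58), Nr3c1 (-1.53) and Stat3 (-1.13). Without inducers Fkbp5 fell by 1.19 and Tsc22d3 rose by 1.62 at P1. In late CLiPs 6 of 14 rose over those 8 days, among them Osmr (2.37), Tsc22d3 (2.18), Socs3 (1.12) and Stat3 (1.03).

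Of 9 transcription factors known at fibrinogen promoters, 6 rose on P1 induction and 1 on late induction, where 9.69% and 2.94% of all genes were called higher. At P1, Cebpd rose by 1.84, Cebpa by 1.56 and Cebpb by 1.18. In late induction Cebpa rose by 2.01, and Cebpb, at 0.13, was not called. From fresh to P1 day 0, Cebpd rose by 3.24, while Cebpa (-5.50), Hnf4a (-1.31) and Cebpb (-1.05) fell.

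A list of 10 other acute-phase genes, not split by class, was set beside the chains. From fresh to P1 day 0, 9 of 10 fell (median -4.70), with Itih3 at -7.15 and Crp at -6.23, where 25.2% of all genes were called lower. Crp was well above background on 2 of 3 day-0 arrays, and its other probe gave -1.57. On P1 induction 9 of 10 rose (median 3.31), led by Serpina3n at 6.22 and Itih3 at 5.32, and without inducers 6 of 10 rose (median 1.71). Induced P1 cells had 5 of the 10 above fresh, Serpina3n the furthest at 3.97, and 1 below, Serpina1b at -1.66. In late CLiPs 8 of 10 rose without inducers, with Lbp at 5.14 and Itih4 highest. Itih4 was well above background on 1 of 3 late day-0 arrays, so its fitted change of 6.58 is not a measured size, and its other probe gave 1.03. On late induction 4 of 10 rose, with Serpina3n at 8.24 and Itih3 at 4.96. The median of the late uninduced change was 3.57, or 2.48 with the gene that was dim in 1 group at its lower bound.

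Most clotting factor genes tested fell from fresh to P1 day 0 and rose on P1 induction. Of 12 tested, of 14 listed, 11 fell from fresh to P1 day 0 (median -6.89) and only F3, tissue factor, rose (3.46). F10 stood at -10.72, Klkb1, plasma prekallikrein, was at least 998-fold lower, and F2, prothrombin, stood at -4.67. On P1 induction 9 of 12 rose (median 2.32), with F10 at 6.56, F9 at 5.14 and F2 at 2.61, and F3 fell by 2.23. In a fit of all 21 arrays 5 of the 12 were called higher. Against fresh cells 9 of 12 remained lower after P1 induction (median -2.25, or -1.88 with bounds), with F11 at -4.20 and F2 at -1.28. In late CLiPs 5 of 8 rose without inducers, F2, well above background on 2 of 3 day-0 arrays, by 5.13 (adjusted p = 4.12e-02) and F12 at least 12.6-fold, and the 1 of 8 called on late induction was F3, which fell by 2.15. The late induction change of F2 was 1.12 (adjusted p = 0.693) and turned to -0.30 without late induced replicate 3. Whether these lists differ from the chains was not tested.

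Genes that limit or dissolve the clot split by direction. Of 9 anticoagulant genes tested, of 10, 6 fell and 3 rose from fresh to P1 day 0. Serpinc1, antithrombin, stood at -11.37 and Proz at -8.83, while Procr, the endothelial protein C receptor, was at least 68.9-fold higher and Thbd, thrombomodulin, rose. Thbd was well above background on 1 of 3 fresh arrays, so its fitted change of 6.65 is not a measured size. P1 induction raised 5 of the 9, Serpinc1 by 5.98 and Proz by 5.46, and lowered Procr by 2.39. A second Serpinc1 probe changed by -1.74 and 0.45 in these comparisons, and by 0.12 on late induction. Late induction raised 3 of 9, Serpina10 by 3.98 and Serpinc1, on overlapping arrays, by 3.00. Among the 9 fibrinolysis genes, Plaur, the urokinase receptor, was at least 449-fold higher at P1 day 0 than in fresh cells. Plat, tissue plasminogen activator, was at least 101-fold higher by the probe used, and its other probe gave a log2 change of 2.49. Hrg (-9.51) and Plg, plasminogen, (-7.95, well above background on 2 of 3 day-0 arrays) fell. The other Plg probe gave -4.04. On P1 induction A2m rose by 8.69, Cpb2 by 7.53 and Plg by 4.45, and Plau, urokinase, and Plat (-3.59) fell. The other probe gave 2.21 for Plg and -2.51 for Plat. Plau was well above background on 1 of 3 P1 induced arrays, so its fitted change of -7.51 is not a measured size, and its other probe gave -4.83. In late induction 1 of 8 rose, A2m by at least 3.06-fold, and Plau (-3.37, well above background on 2 of 3 induced arrays) and Plaur (-1.80) fell. Plg was not tested there.

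Other genes whose proteins carry a fibrinogen-related domain did not move as a group: of 9 tested, of 17, 3 rose and 3 fell in P1 induction (median -0.33, or 0 with dim genes at their bounds), and in the fall from fresh to P1 day 0 as well (median -0.75). Angptl6 rose by 3.44 on P1 induction. Of 12 neighbours of the 5 genes on their chromosomes, 7 were tested at P1. Plrg1, named after its values were seen as the gene next to Fgb, changed by 0.53 from fresh to P1 day 0 and by 0.18 on P1 induction, under 2-fold both times. Mtus1, next to Fgl1, fell by 4.42 and rose by 2.39.

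The genes whose 7 group means ran most like those of each fibrinogen gene were found among 17229 named genes, as a description over 7 points that share libraries and treatment. Fgb and Fgg were each other's closest gene (Pearson r = 0.9956), followed for Fgb by Hp, haptoglobin, Vtn, vitronectin, Paqr6 and Kdm7a, and for Fgg by Cfhr2, Hp, Vtn and 0610040J01Rik. Fga was closest to Serping1, the C1 inhibitor gene, at 0.9956, then to 2010320M18Rik, 9330159M07Rik, St3gal5 and Gm4788, with Fgg ranked 34 and Fgb 42. Fgl1 was closest to Itih3, an acute-phase protein gene, at 0.9938, then to Tcl1, Gsdmc, Eef1a1 and Dnaaf1. These lists rest on the late arrays as well: over the 4 fresh and P1 means, 1 of 5 for Fgg and none of 5 for the other genes stayed on the list.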

How the data were processed

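RNA of 21 samples was hybridised to Agilent 1-colour arrays (Cy3), per the labels' protocols. The deposited scanner files give an intensity per spot, the processed signal, made with Feature Extraction 11.5.1.1 (fresh, P1) or 10.7.3.1 (late), per the file headers. The authors' deposited tables hold log2 values that equalled the log2 signal minus the array's 75th percentile within 0.00760 (fresh and P1) and, centred on each probe's median, 0.00454 (late). The 59305 spots were averaged to 56605 probes. A gene was represented by its brightest probe over all arrays, and 84 genes were left out for outlier spots.

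Comparisons were fitted with limma 3.58.1 (R 4.3.3; lmFit, eBayes) over the 12 fresh and P1 arrays, the 9 late arrays, or all 21 where late and earlier groups were compared, with adjustment over all genes tested. The fit was tested on simulated data. Late samples of one replicate number deviated together (correlations 0.255 to 0.553), which pairs them. P1 numbers did not pair throughout (-0.107 to 0.457).

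List genes named were the 2 highest and 2 lowest called per list and comparison, plus Stat3, Socs3, Osmr, Nr3c1, Fkbp5, Cebpb, F2, Plg, Serpinc1 and Lag3. A few genes that this rule names are not reported here. The members and lists were chosen with earlier results of these data known. Alternatives were quantile normalization, normexp background correction (offset 50), median scaling, no filter on dim probes, the mean of a gene's probes, the replicate or slide as a block, 1 fit of all arrays, the authors' deposited table, and leaving out each array. The within-slide differences were added after seeing the data. The precision is limited by 3 arrays per group.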

Additional observations from a re-analysis of the deposited data

Results flagged for a closer look

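The change over 8 days without inducers was compared between late and P1 CLiPs by an interaction term in limma over all 21 arrays. It differed for 2 of the 4 tested fibrinogen genes and 5 of 10 other acute-phase genes. Of all genes, 1.74% were called higher and 1.11% lower. The late change of Fga exceeded the P1 change by 2.75 on the log2 scale (adjusted p = 2.18e-02) and that of Fgb by 2.40 (adjusted p = 4.52e-02), a call that was lost in 9 of 12 fits without 1 array, with the slide as a block and with no filter on dim probes. Among the acute-phase genes the difference was 4.95 for Hp, haptoglobin (adjusted p = 3.57e-03), 4.87 for Itih4 (adjusted p = 1.13e-02) and 2.41 for Apcs, serum amyloid P (adjusted p = 9.39e-03). For Lbp, the lipopolysaccharide-binding protein gene, it was 2.17 (adjusted p = 1.71e-02), and for Serpina1b 1.87 (adjusted p = 4.97e-02). The other Itih4 probe gave -0.68, opposite in sign, and the probe used was well above background on 1 of 3 late day-0 arrays.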

How the results depend on the processing

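All 4 fibrinogen genes kept their direction in every alternative run for P1 day 0 against fresh, both 8-day changes and both inductions. No such run used a second probe alone. Without inducers the second Fga probe changed by -0.24 at P1. The second Fgl1 probe changed by -0.54 at P1 and -0.31 in late CLiPs, opposite in sign to the first. Another scaling moved the median of all genes by over 0.1 in some comparisons: quantile normalization by up to 0.20, normexp by up to -0.31 (both late induced against fresh) and median scaling by up to 0.25 (late against P1 induced). The cause of the changes below was not tested.

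Without inducers at P1, 3 fibrinogen genes were called and 1 with the mean of all probes. For P1 induced against fresh the count was 0, but 2 with quantile normalization (where Fgb was 0.43 and Fgg 0.28), 1 with normexp and 0 to 1 when 1 array was left out, and Fgl1 was -0.56 with the mean of all probes. Late induction gave 3, and 1 to 3 when 1 array was left out. The difference between inductions gave 0, but 1 with quantile normalization, normexp, the replicate block or the slide block, and 0 to 1 when 1 array was left out (Fgl1 -2.40 to 0.055). The difference between 8-day changes gave 2, but 1 with no filter or the slide block, and 0 to 2 when 1 array was left out. There Fgl1 was 0.032 with the mean of all probes and -0.41 to 0.13 when 1 array was left out. The replicate block, apart from the calls gained by Fgg (late induction) and Fgb (difference between inductions), changed no call of a fibrinogen gene.

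With normexp the genes called higher numbered 752 against 1295 (P1 without inducers), 2576 against 4192 (P1 induced against fresh), 1129 against 1745 (late without inducers), 558 against 968 (late against P1 day 0), 1101 against 1989 (late against P1 induced) and 3510 against 5518 (late induced against fresh), and those lower 1169 against 1860 (P1 induction) and 392 against 652 (late induction). With median scaling 1511 and 3086 were higher in late against P1 day 0 and induced. With no filter 6321, 10727 and 15658 were lower, against 2036, 2913 and 5950, in late against P1 day 0, late against P1 induced and late induced against fresh. The genes most like Fga, Fgb and Fgl1 shared 0 of 5 over the 4 fresh and P1 means, and those most like Fgg 1. Among list genes, signs turned for Nr3c1 (-0.056, P1 without inducers, median scaling), Fkbp5 (0.27, mean of probes) and Serpinc1 (-0.060 to 1.21 without 1 array) in late cells without inducers, and in late induction for F2 (-0.30 with the slide block; -0.30 to 2.31 without 1 array). Of the differences listed above for acute-phase genes, that of Itih4 was 2.88 with normexp and 2.10 with the mean of its probes, and neither was called. The call of Lbp was lost without P1 uninduced replicate 3.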
